A study of Mus musculus with 6 samples.

Results

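Forkhead transcription factors were examined in the lacrimal gland epithelium of mouse embryos that lacked the Pea3 group of ETS factors. The family was taken by gene symbol, as every symbol made of Fox, a letter from a to s and a number, with or without a further letter. This rule found 44 of the 23420 symbols in the count tables, and it left out 3 symbols that only resemble the pattern (Foxred1, Foxred2 and the antisense RNA Foxl2os). RNA-seq had been performed on laser-captured tissue from E14.5 embryos of mixed background, with 3 control and 3 Pea3 TKO samples. Control samples carried Le-Cre. Pea3 TKO samples carried Le-cre, Pea3-/-, Erm fl/fl and Er81 fl/fl. Cre was therefore present in both groups. Le-Cre acts in the surface ectoderm that forms the conjunctiva and the lacrimal gland, so Erm (Etv5) and Er81 (Etv1) were targeted only where Cre acts, whereas the Pea3 (Etv4) allele was null in the whole embryo. All 3 controls have the title WT and the genotype Le-Cre in the labels, while the methods also allow heterozygous animals as controls in general. The labels do not say that the samples of a group came from separate embryos, and p-values measure only the spread between these samples.

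Forkhead proteins bind DNA through a conserved winged-helix domain, in which a recognition helix reads the major groove. The Foxo proteins are held in the cytoplasm when Akt phosphorylates them and act on stress, cell cycle and metabolic genes when they return to the nucleus. Foxm1 drives genes of the G2 and M phases, Foxc1 and Foxc2 act in the mesenchyme and ectoderm around the eye, and Foxc1 is known for its role in lacrimal gland outgrowth. Other members are cell type regulators, such as Foxn1 in thymic and skin epithelium, Foxj1 in ciliated cells, Foxi1 in ionocytes and Foxe3 in the lens.

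The samples held 14194775 to 17860140 counted reads each. Expression is given as CPM, the count per 1000000 reads after TMM normalization, and per kb as CPM divided by the exonic length of the gene in kb. Of 13087 genes tested by edgeR's quasi-likelihood test with Benjamini-Hochberg adjustment, 3268 (25.0%) passed an adjusted p of 0.05. Among all genes tested 13.6% were higher in Pea3 TKO and 11.3% were lower. Etv5 lay at 961 to 1202 CPM in control and at 88.2 to 177.0 CPM in Pea3 TKO, Etv4 at 129.4 to 184.2 and 10.86 to 28.43, and Etv1 at 28.67 to 33.94 and 9.208 to 9.985. The epithelial marker Cdh1 was detected in every sample, at 458 to 1108 CPM. Y-linked genes were expressed in all 3 control samples and in 1 Pea3 TKO sample (replicate 3), and the other 2 Pea3 TKO samples lacked them, so that embryo sex was unequal between the groups. With summed Y-linked expression as a covariate, 6.61% of all genes tested passed, and over the 4 samples with Y-linked expression alone 4.32% passed, an alternative chosen after seeing the data.

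To show what family members share and where they part, the 10 codons (30 bases) that begin the recognition helix were read from the longest coding sequence of each gene in GENCODE M21 (GRCm38), starting at the conserved tryptophan codon. Capitals mark bases that differ from Foxc1, and all are written 5′ to 3′ on the coding strand.
Foxc1: tggcagaacagcatacggcacaacctctcg
Foxc2: tggcagaacagcatCcgCcacaacctGtcA
Foxq1: tggcGCaacTCcGtGcgCcacaacctctcg
Foxn1: tggAagaaTTCTGtTcgCcaTaacctGtcC
Foxk2: tggcagaaTTCAatTcgCcacaaTctctcT
Foxo6: tggAagaacTCcatTcggcacaacctGtcg
Foxm1: tggAagaacTCTatTcgTcacaacctTtcT
The Foxc1 codons lie in exon 1 at chr13:31807571-31807600, those of Foxq1 at chr13:31559391-31559420, and those of Foxc2 at chr8:121116957-121116986. Foxc2, the closest relative of Foxc1, differed from it at 4 bases and at none of the 10 residues. Foxq1 differed at 7 bases and 2 residues, and Foxn1, read from exon 7 at chr11:78361589-78361618, at 11 bases and 2 residues. In Foxk2, Foxo6 and Foxm1 an intron splits these codons, with 8, 5 and 8 differing bases and 0, 1 and 1 differing residues. The signature was found in 37 of the 44 members, and the other 7 included the whole Foxp subfamily, whose helix has another sequence. An intron split the codons in 10 of the 37 members, all of them Foxj, Foxk, Foxm or Foxo genes. Of these 10, 9 passed the expression filter, against 7 of the 27 members with the codons in a single exon and 13087 of all 23420 symbols. The split members are close relatives and not separate cases, and a link between the intron and expression was not tested.

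Of the 44 members, 15 stayed at or under 3 counts in every sample. Detected members, with more than 3 counts in every sample of a group, numbered 18 in control and 19 in Pea3 TKO, and 18 of them were shared. Foxn1 was the member detected in Pea3 TKO only. No read was counted in any sample for 9 members, Foxi1, Foxi3, Foxb1, Foxb2, Foxd4, Foxh1, Foxn4, Foxr1 and Foxr2, which at these depths allows levels up to 0.169 to 0.210 CPM per sample (a floor of 3 counts, for counting error only). A further 6 members never exceeded 3 counts. These were Foxa2 (2 counts in Pea3 TKO replicate 1), Foxa3 (1 in control replicate 2), Foxd3 (3 in control replicate 1), Foxe1 (1 in Pea3 TKO replicate 1), Foxf1 (1 in control replicate 2) and Foxs1 (2 in Pea3 TKO replicate 1). Foxa2 and Foxa3 are known from endoderm, Foxd3 from neural crest, and Foxi1 from ionocytes.

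Another 10 members had low counts and were not tested. In 5 of them only 1 sample exceeded 3 counts. Among these, Foxd2 reached 14 counts in Pea3 TKO replicate 2, Foxi2 reached 6 in the same sample, and Foxp3, the regulator of regulatory T cells, reached 4 in Pea3 TKO replicate 1. Foxd1 reached 5 in control replicate 1. In the other 5 the counts were scattered over several samples. Foxa1, a pioneer factor of endodermal and glandular epithelia, had 0, 0 and 4 counts in the controls, here and below in the order of replicates 1 to 3, and 23, 0 and 19 counts in Pea3 TKO. Foxl2, an eyelid and ovary factor, had 10, 1 and 4 counts in control and 26, 43 and 0 in Pea3 TKO. The Foxl2 exon overlaps that of Foxl2os on the opposite strand, which had 0, 10 and 6 counts in control and 0, 58 and 0 in Pea3 TKO, and since the strand setting of the counting is not given, reads of this pair cannot be told apart. Foxe3, the lens factor, had 4, 7 and 1 counts in control and 3, 0 and 4 in Pea3 TKO. Foxj1 had 4, 0 and 1 counts against 3, 1 and 7, and Foxf2 had 6, 0 and 0 against 1, 4 and 15. For each of these 5 genes the groups overlapped. The highest level of any untested member was 3.01 CPM, that of Foxl2 in Pea3 TKO replicate 2. Members that were not tested made up 0.3% of the summed per-kb level of the family in control and 0.771% in Pea3 TKO.

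Foxc1, Foxc2, Foxp1, Foxk2, Foxm1 and Foxp4 were the most abundant members per length in control. These 6 genes held 82.3% of the summed CPM per kb of the family in control and 70.6% in Pea3 TKO. In control, Foxc2 was first with 42.9 ± 5.52 CPM per kb (SD, n = 3) and Foxc1 second with 36.0 ± 4.04. Foxc2 stood above Foxc1 in every control sample, with a Foxc1 to Foxc2 ratio per kb of 0.871, 0.810 and 0.841. In Pea3 TKO the order turned, with Foxc1 first at 46.1 ± 1.71 CPM per kb, followed by Foxc2 at 25.3 ± 4.01 and Foxq1 at 24.0 ± 7.16. The ratio per kb was then 2.07, 1.60 and 1.88, and an exact permutation test (two-sided, 3 against 3) gave p = 0.1, which is the smallest p that this design allows. The pair was chosen after its values were seen. In Pea3 TKO the difference between Foxc2 and Foxq1 per kb was smaller than the spread of either. As a share of the family per kb, Foxq1 went from 0.885% to 13.1%, Foxc1 from 18.7% to 25.2%, and Foxc2 from 22.3% to 13.8%. The summed level of the whole family was 195.8, 204.9 and 176.8 CPM per kb in control and 184.9, 187.5 and 176.8 in Pea3 TKO. These groups overlapped and the exact permutation p was 0.4. Among all tested genes with a length, Foxc1 stood at percentile 85.3 per kb in control and 89.1 in Pea3 TKO, and Foxq1 at 24.8 and 78.5.

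**Figure D1:**
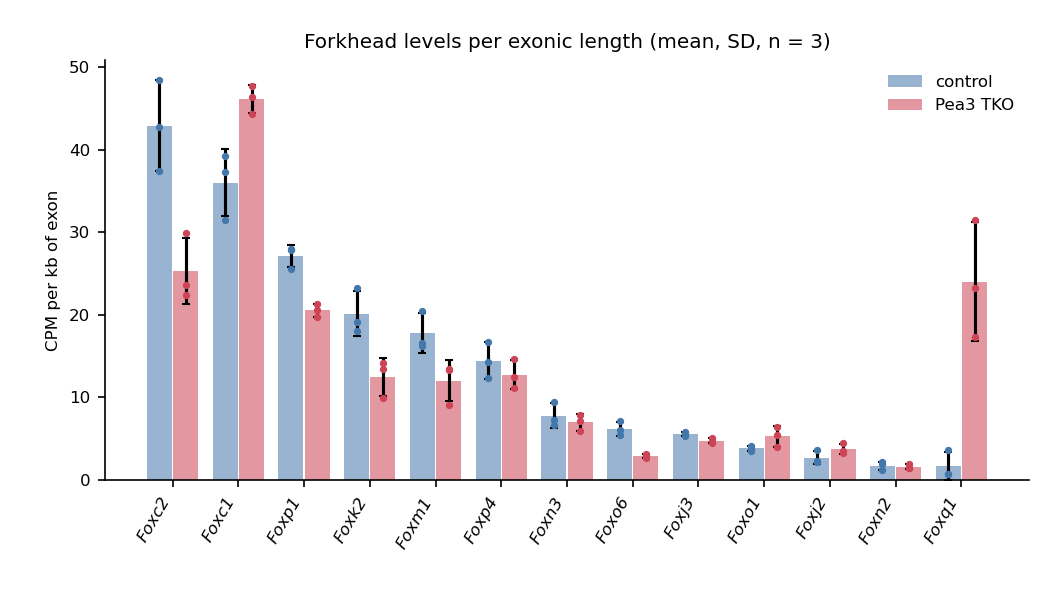
Level per exonic length (CPM per kb of exon) of the 13 members with the highest control level, in control (blue) and Pea3 TKO (red), as bars for the mean, error bars for the SD (n = 3, the lower end stopping at 0 for Foxq1 in control) and points for the samples. Foxc2 and Foxc1 lead in control, and Foxc1, Foxc2 and Foxq1 lead in Pea3 TKO.

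Of the 44 members 19 passed the low-count filter and were tested, and 8 were called at an adjusted p under 0.05, beside 25.0% of all genes tested. Foxq1 and Foxn1 were higher in Pea3 TKO, beside 13.6% of all genes. Foxc2, Foxk2, Foxo6, Foxp2, Foxp1 and Foxm1 were lower, beside 11.3% of all genes. The filter was passed in both groups by 17 of the 19 members, by Foxn1 through the Pea3 TKO samples alone, and by Foxo4 in neither group whole, so that Foxn1 entered the test because it was high there and its call is not independent of the filter. Without it, 7 members were called, 1 of them higher. The median log2 fold change was -0.18 over the 19 tested members and 0.01 over all genes tested. With Y-linked expression as a covariate only Foxq1 and Foxp2 of the 19 were called, and over the 4 male samples Foxp2 alone was. With the covariate the log2 fold changes of the other called members were -0.87 for Foxc2, -0.52 for Foxk2, -0.98 for Foxo6, -0.40 for Foxp1, -0.43 for Foxm1 and 3.06 for Foxn1. Only 1 Pea3 TKO sample was male, and the part of embryo sex in these differences was not tested further.

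**Figure D2:**
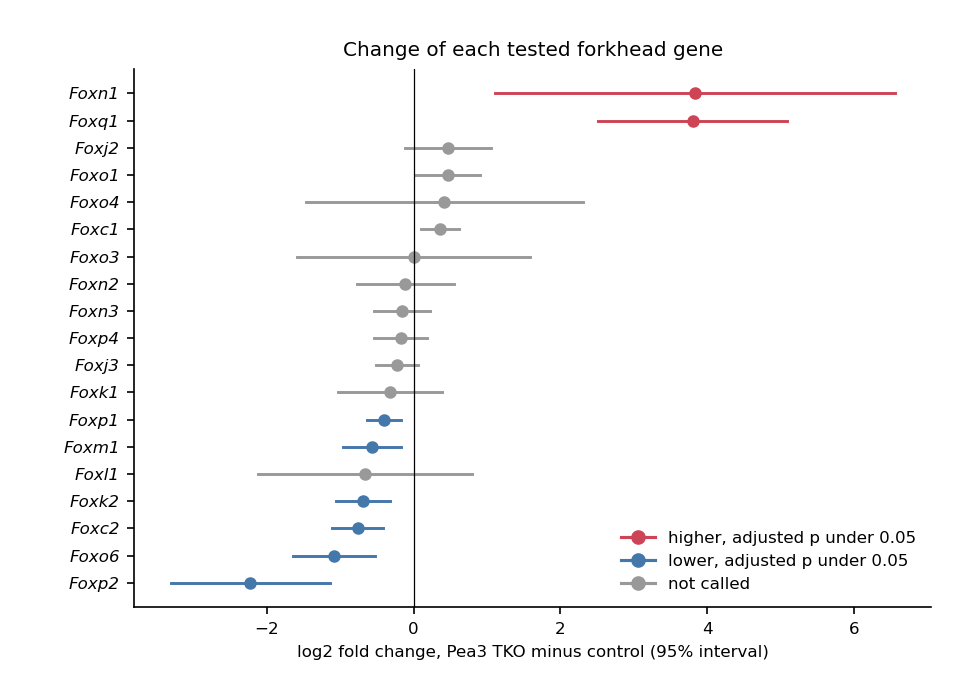
Log2 fold change (Pea3 TKO minus control) of the 19 tested forkhead members as points with 95% confidence intervals, in red where higher, in blue where lower and in grey where not called. The intervals of Foxq1 and Foxn1 lie above 0 and those of the 6 lower members below 0. Those of Foxc1 and Foxo1, which were not called after adjustment, also lie above 0.

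Foxq1, a forkhead repressor of skin and mucosal epithelia, had the largest increase in CPM of the 19 tested members. It was at 17.8, 3.30 and 3.64 CPM in the controls and at 152.8, 112.7 and 83.7 CPM in Pea3 TKO. Every Pea3 TKO sample lay above every control sample, and control replicate 1 lay well above the other controls. The log2 fold change was 3.80 (SE 0.58, 95% interval 2.51 to 5.09, adjusted p = 0.0017), from a mean of 8.25 ± 8.28 to 116.4 ± 34.7 CPM (SD, n = 3). Without control replicate 1 it was 5.06. Among the 12 alternative fits the log2 fold change ran from 3.35 to 5.06, and the call was lost only over the male samples, at an adjusted p of 0.0682. Reads on Foxq1 could include those of A530084C06Rik, a transcript whose exon overlaps it on the opposite strand and that has no row of its own in the tables.

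The control sample that was high in Foxq1 was also high in the sum of epidermal genes, though not in each of them. Summed CPM of 14 epidermis genes was 2318, 1229 and 1138 in control and 8379, 7651 and 6171 in Pea3 TKO. Control replicate 1 led the controls in this sum mainly through Krt15 and Krt5. In control, Krt15 was at 719.9, 137.6 and 63.1 CPM and Krt5 at 363.4, 144.7 and 83.2, whereas Krt14 was at 99.9, 73.2 and 91.6. Of the 12 tested genes of the list, 11 were higher in Pea3 TKO, beside 13.6% of all genes, and none lower. With the Y-linked covariate 5 were higher, and over male samples 3 were. Among the 11 was Krt14, a keratin of basal cells, which was at 73.2 to 99.9 CPM in control and 432.9 to 745.8 in Pea3 TKO. Because these are bulk samples, more cells of a type and more RNA per cell cannot be told apart. Whether epidermal or conjunctival cells carried the Foxq1 reads was not tested.

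Foxn1, the regulator of thymic and hair follicle epithelium, was low in both groups. Its counts were 0, 4 and 0 in control and 24, 22 and 13 in Pea3 TKO, or at most 0.249 CPM against 0.764 to 1.54 CPM. The groups did not overlap, and 2 of the 3 controls held no read. Summed over samples this was 4 counts against 59, a ratio of 15.4 after scaling for library size, with an exact 95% interval of 5.71 to 58.4 that covers counting error only. The fitted log2 fold change was 3.83 (SE 1.22, 95% interval 1.11 to 6.56, adjusted p = 0.045), for a gene that passed the filter only through the group in which it was high. Without the filter the adjusted p was 0.0932. This call was kept only with other size factors, with DESeq2 and without control replicate 2, and it was lost in the other 9 alternatives. Leaving out control replicate 1 or 3 gave an adjusted p of 0.103 and 0.153, and leaving out Pea3 TKO replicate 1, 2 or 3 gave 0.128, 0.132 and 0.0715. With the replicate block it was 0.0618.

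**Figure D3:**
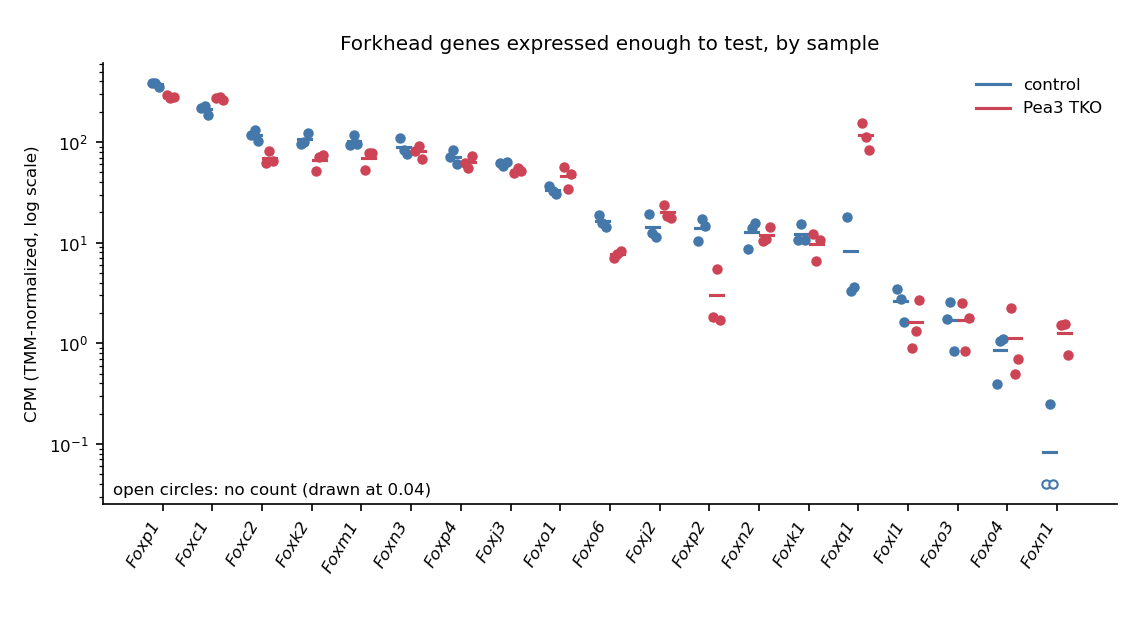
TMM-normalized CPM (log axis) of the 19 tested forkhead members in each control (blue) and Pea3 TKO (red) sample, with a line at each mean and open circles for samples without a count. Foxq1 spans 3.30 to 17.8 CPM in control and 83.7 to 152.8 in Pea3 TKO, whereas Foxp1 has the highest mean CPM in both groups.

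Foxc1 and Foxc2, whose helix codons encode the same residues, had differences of opposite sign, of which that of Foxc2 passed the test. Foxc2 fell from 116.7, 132.0 and 102.0 CPM in control to 61.1, 81.4 and 64.3 CPM in Pea3 TKO. The highest Pea3 TKO value was below the lowest control value, with a log2 fold change of -0.76 (SE 0.15, 95% interval -1.11 to -0.42, adjusted p = 0.0069). Foxc1 was at 217.9, 229.3 and 184.0 CPM in control and at 271.1, 278.9 and 259.1 CPM in Pea3 TKO. The groups did not overlap, and the log2 fold change was 0.36 (SE 0.12, 95% interval 0.09 to 0.62, adjusted p = 0.0507). With other size factors the adjusted p of Foxc1 was 0.0497, and with DESeq2 it was 0.0205. DESeq2 exceeded the limit on false calls in counts simulated from edgeR's own fit, a setting that favours edgeR. Without control replicate 3 its log2 fold change was 0.27 and its adjusted p 0.203. Foxc2 kept its call when any single sample was left out and lost it with the Y-linked covariate (log2 fold change -0.87, adjusted p = 0.0639) and over male samples (-0.85, adjusted p = 0.0682).

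Foxc1 and Foxc2 are also genes of the periocular mesenchyme, whose summed level was well above control in Pea3 TKO replicates 1 and 2 only. Summed CPM of 18 mesenchyme genes was 347.6, 339.6 and 380.1 in control and 934.5, 1063 and 411.5 in Pea3 TKO, with Tcf21 at 0 in every sample. Osr2 and Vim made up most of the sum in every control and in Pea3 TKO replicate 3. Osr2 was at 234.5, 215.5 and 157.3 CPM in control and 403.9, 367.1 and 305.8 in Pea3 TKO. Vim was at 84.7 to 90.4 CPM in control and 87.3 to 104.5 in Pea3 TKO. Col1a1 was at 1.86, 4.74 and 18.9 CPM in control and 54.5, 70.8 and 1.23 in Pea3 TKO. Of the 15 mesenchyme genes tested, 4 were higher (Osr1, Osr2, Dcn and Lum), beside 13.6% of all genes, and none was lower. The count of higher genes was 1 without Pea3 TKO replicate 1 or without replicate 2, 8 without Pea3 TKO replicate 3, 2 without control replicate 1 or without control replicate 2, 1 with the replicate block, and 0 with the Y-linked covariate or over male samples. Pea3 TKO replicate 3, which was close to the controls in this sum, had 259.1 CPM of Foxc1 and 64.3 CPM of Foxc2. The part of mesenchymal cells in either level was not tested.

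Both Foxc genes sit in clusters of forkhead genes, of which few members could be compared. On chromosome 13, Foxq1 (chr13:31556134-31560976) lies 69.7 kb from Foxf2 (chr13:31625816-31631403), which in turn lies 180.8 kb from Foxc1 (chr13:31806633-31812476). Foxq1 was higher in Pea3 TKO, Foxf2 stayed at 15 counts or fewer, and Foxc1 was not called. On chromosome 8, Foxf1 (chr8:121084386-121088144) lies 31.8 kb from Foxc2 (chr8:121116171-121118895), and Foxl1 (chr8:121127940-121130644) lies 11.8 kb beyond Foxc2. Foxf1 had 1 count in all samples together, Foxc2 was lower, and Foxl1, a mesenchymal factor of the gut, was at 3.44, 2.74 and 1.63 CPM in control and 0.889, 1.33 and 2.70 in Pea3 TKO. The groups overlapped for Foxl1, with a log2 fold change of -0.66 and a 95% interval of -2.12 to 0.80 (adjusted p = 0.503), which includes the value of Foxc2.

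**Figure D4:**
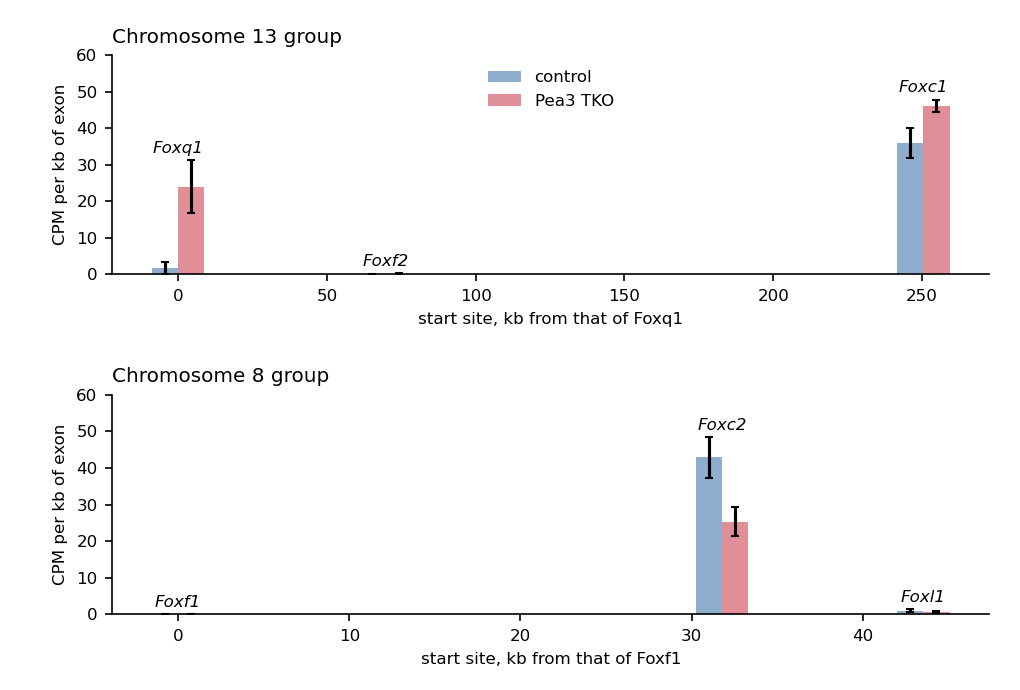
Level (CPM per kb of exon) of the forkhead genes in the chromosome 13 and chromosome 8 clusters, drawn at their start sites in kb from the first gene, as means with SD over 3 control (blue) and 3 Pea3 TKO (red) samples. Foxq1 and Foxc1 flank Foxf2, which is near 0, and Foxc2 lies between Foxf1, near 0, and Foxl1, at most 3.44 CPM in any sample.

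Since the deleted factors are ETS proteins, promoters of the family were searched for their core. RefSeq promoters (GRCm38.p6, 250 bases before to 50 after the start) were matched for 28 of the 44 members, with 33 promoters. The letters CCGGAAGT, on either strand, were in 3.89% of 32851 promoters and in 0 of the 33. The shorter CCGGAA, which CCGGAAGT contains, was in 14.9% of all promoters and in 4 of the 33, those of Foxa2, Foxj3, Foxr1 and Foxc1. The forkhead core TGTTTAC was in 3.65% of all promoters and in 1 of the 33, that of Foxa1. Foxq1, Foxc2, Foxp2, Foxo6 and Foxm1 had no match in the table. The Foxc1 promoter, with the CCGGAA core in capitals 62 bases before the start, and the Foxk2 promoter, the most abundant called member with a match besides Foxp1, are shown on the plus strand (chr13:31806396-31806695 and chr11:121259737-121260036).
Foxc1: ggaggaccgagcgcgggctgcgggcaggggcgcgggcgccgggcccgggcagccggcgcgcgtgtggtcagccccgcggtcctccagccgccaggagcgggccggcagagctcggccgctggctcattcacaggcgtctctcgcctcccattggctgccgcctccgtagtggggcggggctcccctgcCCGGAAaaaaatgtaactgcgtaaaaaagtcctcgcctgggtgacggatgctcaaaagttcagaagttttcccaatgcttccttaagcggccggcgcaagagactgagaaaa
Foxk2: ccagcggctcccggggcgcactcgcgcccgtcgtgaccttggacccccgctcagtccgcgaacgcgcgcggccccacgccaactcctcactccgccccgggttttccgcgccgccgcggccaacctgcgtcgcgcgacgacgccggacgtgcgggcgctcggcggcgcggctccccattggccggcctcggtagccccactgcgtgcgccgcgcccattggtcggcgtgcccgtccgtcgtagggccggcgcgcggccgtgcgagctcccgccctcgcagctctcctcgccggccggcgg
The Foxk2 window held none of these motifs, nor did those of Foxn1 and Foxp1. A match is a description of letters and not of binding.

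The Foxp subfamily, repressors that work as dimers, gave 2 of the 6 lower genes. Foxp2, a regulator of lung and neural development, was at 10.3, 17.3 and 14.6 CPM in control and at 1.84, 5.52 and 1.70 CPM in Pea3 TKO. The groups did not overlap, and Pea3 TKO replicate 2 was the highest of its group. The log2 fold change was -2.22 (SE 0.49, 95% interval -3.31 to -1.13, adjusted p = 0.00997), and the call held in all 12 alternatives, with values from -3.07 to -1.94. Over the male samples Foxp2 was at -3.03 (adjusted p = 0.0314). Foxp1, the most abundant member in CPM, was at 382.9, 384.9 and 351.9 CPM in control and 293.6, 271.0 and 282.6 CPM in Pea3 TKO. These values did not overlap, and the log2 fold change was -0.40 (SE 0.10, 95% interval -0.64 to -0.17, adjusted p = 0.0209). The call was lost, at a similar log2 fold change, without control replicate 2 (-0.38, adjusted p = 0.0817), without Pea3 TKO replicate 2 (-0.37, adjusted p = 0.0835) and with the Y-linked covariate (-0.40, adjusted p = 0.175). Foxp4 was at 60.9 to 82.6 CPM in control and 54.8 to 72.4 in Pea3 TKO, overlapping, with a log2 fold change of -0.18 and a 95% interval of -0.54 to 0.18.

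Foxk2, a repressor that recruits the Bap1 and Sin3a complexes, was lower in Pea3 TKO, while its paralogue Foxk1 was not called. Foxk2 was at 94.9, 100.7 and 122.1 CPM in control and 52.0, 70.6 and 74.3 CPM in Pea3 TKO, with no overlap. The log2 fold change was -0.69 (SE 0.17, 95% interval -1.06 to -0.32, adjusted p = 0.0155). Without control replicate 3 the adjusted p was 0.0651, and with the Y-linked covariate it was 0.247. Foxk1 lay at 10.6 to 15.3 CPM in control and 6.50 to 12.2 in Pea3 TKO, with a log2 fold change of -0.32 and a wide 95% interval of -1.03 to 0.38. The difference between Foxk1 and Foxk2 was not tested.

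Of the partners of Foxa, Foxk, Foxp and Foxh proteins on a list of 25 corepressors, chromatin factors, Smad proteins and other cofactors, 24 were tested, 2 were higher and 3 lower, beside 25.0% called among all genes, with a median log2 fold change of -0.16. Leaving out control replicate 1, 2 or 3 gave 3, 0 or 1 higher and 4, 2 or 3 lower, and leaving out Pea3 TKO replicate 1, 2 or 3 gave 2, 1 or 1 higher and 2, 1 or 5 lower. With the Y-linked covariate 0 were higher and 1 lower, and none was called over male samples. The corepressor Ctbp2, which binds Foxp proteins, was at 167.1, 166.3 and 179.5 CPM in control and 77.9, 95.6 and 102.7 in Pea3 TKO (log2 fold change -0.89, SE 0.13, adjusted p = 0.00139). The Groucho-type corepressor Tle3 and the deacetylase Hdac2 were also lower, with log2 fold changes of -1.73 and -0.41. Tle4, another Groucho-type corepressor, was higher at 0.58, as was Smad3 at 0.43.

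Among the Foxo genes, Foxo6 fell and the others were not called. Foxo6, the brain-enriched member that lacks regulated nuclear export, was at 18.7, 15.8 and 14.3 CPM in control and at 7.05, 7.76 and 8.16 CPM in Pea3 TKO. The groups stood well apart, with a log2 fold change of -1.09 (SE 0.25, 95% interval -1.65 to -0.53, adjusted p = 0.0123). Its call held when any single sample was left out and was lost with the Y-linked covariate (log2 fold change -0.98, adjusted p = 0.188) and over male samples (-0.98, adjusted p = 0.167). Foxo1, the principal insulin-regulated member, was at 36.1, 32.9 and 30.3 CPM in control and 55.8, 34.1 and 47.6 in Pea3 TKO. Pea3 TKO replicate 2 was inside the control range, and the log2 fold change was 0.47 (95% interval 0.03 to 0.91, adjusted p = 0.109), which became 0.65 with an adjusted p of 0.0389 without that sample. Foxo3 lay at 0.845 to 2.55 CPM in control and 0.839 to 2.54 in Pea3 TKO, with a 95% interval of the log2 difference from -1.59 to 1.59. Foxo4 lay at 0.395 to 1.11 CPM against 0.489 to 2.22, with a 95% interval of -1.47 to 2.31. For these last genes the depth allowed no statement on a difference.

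Genes that Foxo proteins are known to activate were higher in Pea3 TKO more often than lower. Of 30 listed, 25 were tested, 13 were higher, none was lower, and the median log2 fold change was 0.62, beside 13.6% higher among all genes and an overall median of 0.01. The growth regulator Klf6 was at 59.5, 49.3 and 55.2 CPM in control and 144.7, 129.1 and 134.0 in Pea3 TKO (log2 fold change 1.31, SE 0.13, adjusted p = 1.77e-04). Txnip, an inhibitor of thioredoxin, had a log2 fold change of 1.89 (SE 0.19, adjusted p = 2.43e-04), and Bcl2l11, the proapoptotic protein Bim, one of 1.08 (SE 0.14, adjusted p = 6.54e-04). Also higher were Cdkn1a, Bcl6, Ccng2, Cited2, Gadd45a, Gadd45b, Insr, Irs2, Sesn3 and Map1lc3b. The count of higher genes was 7 without control replicate 2, 7 without control replicate 3, 7 without Pea3 TKO replicate 1, 4 with the Y-linked covariate and 3 over male samples. In some alternatives a target was also lower, 1 each with DESeq2, without the filter and with the replicate block.

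All 22 listed genes upstream of Foxo were tested, from the insulin receptor arm, PI3K, Akt and Sgk kinases and their phosphoserine-binding adaptors. Of these, 6 were higher and none lower, beside 13.6% higher and 25.0% called in either direction among all genes. The median log2 fold change was 0.04. Irs1, an adaptor of the insulin receptor, had 1.31 (SE 0.17, adjusted p = 0.00086), the adaptor Sfn 1.86 (adjusted p = 0.0040) and the kinase Sgk3 0.89 (adjusted p = 0.0194). The others were Insr, Irs2 and Pik3r1, and Insr and Irs2 are counted among the Foxo targets as well. Sfn is an epidermal gene too, with 223.3 CPM in control replicate 1 against 86.7 and 82.1 in the other controls. This count was 2 without control replicate 2, without control replicate 3 or without Pea3 TKO replicate 1, and 2 with the Y-linked covariate. Over male samples 0 were higher and 1 lower. Lower genes also appeared with DESeq2 (3), and 1 each without the filter, with the replicate block, without control replicate 1 and without Pea3 TKO replicate 2.

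Foxm1, the activator of G2 and M phase genes, was lower in Pea3 TKO. It was at 93.4, 118.2 and 95.7 CPM in control and 52.6, 77.7 and 76.9 CPM in Pea3 TKO. The groups did not overlap, and replicate 1 was the lowest of the Pea3 TKO samples. The log2 fold change was -0.57 (SE 0.18, 95% interval -0.96 to -0.18, adjusted p = 0.0403). The call was lost without control replicate 2 (adjusted p = 0.152), control replicate 3 (0.0747), Pea3 TKO replicate 1 (0.0939) or Pea3 TKO replicate 2 (0.0646), and with the Y-linked covariate (0.380).

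All 26 genes of a list of Foxm1 targets were tested, of which 8 were lower and none higher, beside 11.3% lower among all genes, with a median log2 fold change of -0.28. The spindle checkpoint kinase Bub1 was at 144.8, 129.9 and 182.9 CPM in control and 84.0, 105.4 and 111.7 in Pea3 TKO (log2 fold change -0.60, SE 0.16, adjusted p = 0.0228). Aurkb, a mitotic kinase, had -0.47 (adjusted p = 0.0297) and Skp2, a ubiquitin ligase subunit, -0.54 (adjusted p = 0.0388). Mybl2, Kif20a, Cdc25c, Cdk1 and Cks1b were lower as well. The count of lower genes was 1 without control replicate 2, 0 without control replicate 3, 1 without Pea3 TKO replicate 1, 0 without Pea3 TKO replicate 2, 11 without Pea3 TKO replicate 3 and 0 with the Y-linked covariate or over male samples.

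**Figure D5:**
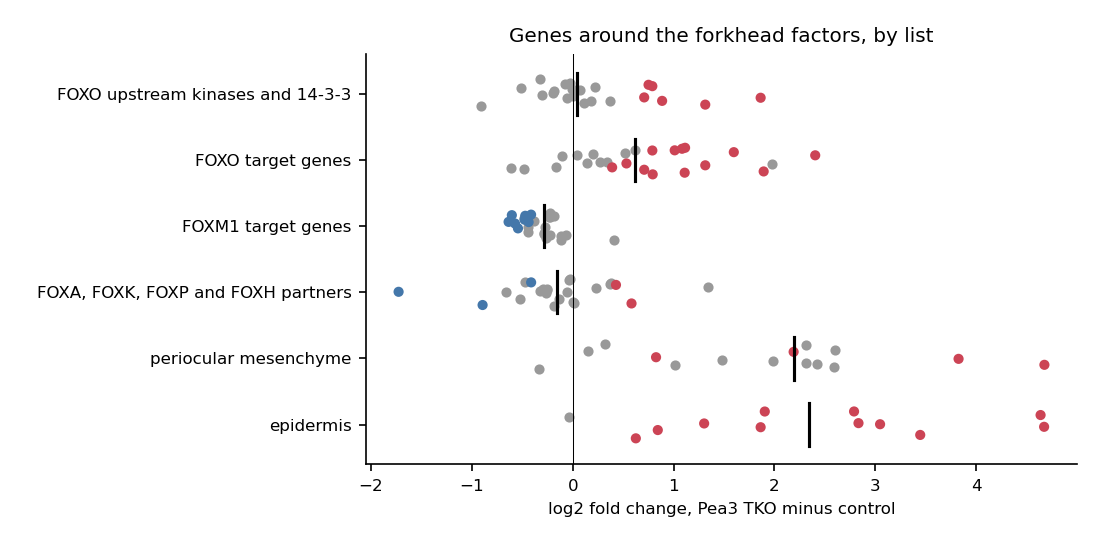
Log2 fold change (Pea3 TKO minus control) of each tested gene of the 4 forkhead pathway lists and of the mesenchyme and epidermis lists, in red where higher, in blue where lower and in grey where not called, with a bar at each median. The medians are 0.62 for Foxo targets, -0.28 for Foxm1 targets and 2.35 for epidermis genes.

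Among the remaining tested members none was called. Foxj3 was at 58.0 to 63.7 CPM in control and 49.6 to 55.7 in Pea3 TKO without overlap, with a log2 fold change of -0.22 and a 95% interval of -0.51 to 0.07. Foxj2 was at 11.4 to 19.2 against 17.6 to 23.8 CPM, with an interval of -0.12 to 1.06. Foxn3, a checkpoint repressor, was at 76.7 to 109.3 against 68.1 to 91.1 CPM, with an interval of -0.54 to 0.22, and Foxn2 at 8.74 to 15.6 against 10.4 to 14.4 CPM, with an interval of -0.77 to 0.55. Of the 11 tested members without a call, 6 (Foxc1, Foxo1, Foxj3, Foxn2, Foxn3 and Foxp4) had intervals within 1 log2 unit of no difference, whereas those of Foxj2, Foxk1, Foxl1, Foxo3 and Foxo4 reached further.

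Cell types that are known to use an untested member were read from their own markers. For comparison, 25.0% of all genes tested were called, 13.6% higher and 11.3% lower. Of the ciliated cell genes, the setting of Foxj1, 7 were tested, with Rfx2 higher (log2 fold change 1.95, adjusted p = 0.0080) and Ccdc40 lower (-2.31, adjusted p = 0.0023). Of the ionocyte genes, the setting of Foxi1, 2 were tested, with Cftr higher (3.48, adjusted p = 0.0085), and Atp6v0d2 and Slc26a4 were at 0 in every sample. Lens genes, the setting of Foxe3, summed to 183.4, 820.9 and 138.4 CPM in control and 272.4, 142.7 and 165.9 in Pea3 TKO. Among 7 lens genes tested, Bfsp2 alone was lower. Foxe3 had 7 counts in control replicate 2, which led the lens sum, and 4 or fewer in every other sample. These counts are too few to be compared with that sum. Schwann and neural genes, the setting of Foxd3, summed to 604.8, 662.9 and 703.3 CPM in control and 153.6, 178.7 and 227.1 in Pea3 TKO. Among 6 of them tested, Sox10 and Erbb3 were lower. Endothelial genes summed to 4.23, 2.62 and 4.03 CPM in control and 10.2, 29.4 and 32.3 in Pea3 TKO, with Tie1 and Emcn at 0. Only 2 were tested, of which Flt1 was higher and made up most of the Pea3 TKO sum. Flt1 was at 0.113, 0 and 0 CPM in control and 7.68, 21.6 and 31.8 in Pea3 TKO. Skeletal muscle genes summed to 5.17 CPM or less and melanocyte genes to 6.15 CPM or less, while 7 tested blood and immune genes gave no call. Of 11 surface epithelium genes 8 were higher, with Cldn4 at a log2 fold change of 1.73 and Pax6 at 1.10.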

How the data were processed

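E14.5 lacrimal gland epithelium of 3 control and 3 Pea3 TKO mouse samples was captured by laser and its RNA was amplified (Nugen Ovation RNA-seq System V2), prepared with a TruSeq kit and sequenced on a HiSeq2500. The authors deposited a table of raw, whole-number read counts by gene symbol for each sample, with totals of 14194775 to 17860140. The submitters' processing notes name bcl2fastq 2.17, STAR 2.5.2b, featureCounts 1.5.0-p3, DESeq and the build mm10; the annotation and strand setting are not given in the sources used here. The deposited counts were filtered with filterByExpr of edgeR 4.0.16 (R 4.3.3) and scaled by TMM, and the quasi-likelihood test was fitted with condition alone. P-values were adjusted by Benjamini-Hochberg over all 13087 genes tested. SE was taken as the size of the log2 fold change over the root of F. Intervals and floors for counts cover counting error only.

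Alternatives were RLE size factors, DESeq2 1.42.0, no low-count filter, the replicate number as a block, a covariate of Y-linked expression and leaving out each sample. A fit over the male samples was added after seeing the data. Counts of the closest pair of samples in a group differed by far more than sampling noise (chi-square per degree of freedom 15.66), so each was kept as a sample. Deviations from the group means correlated at -0.064 to 0.144 between samples that share a number, so the numbers were not taken to pair the samples. Gene positions, exonic lengths and coding sequences come from GENCODE M21 (GRCm38), matched by symbol for all 44 members, and promoters from RefSeq. Text names the forkhead members, apart from a result that is not reported here, up to 3 other genes of each list by smallest p, and the Etv and Y-linked checks. Other called genes of the lists were named after their values were seen. The members and the lists were chosen with earlier results of these data known, and no list was tested as a set. The scripts were tested on simulated data. A limit on false calls was set at first for both tools. DESeq2 exceeded it, and the limit was then kept for edgeR alone, so DESeq2 calls had a higher false share in that simulation. Its counts were drawn with the dispersions that edgeR had fitted, and 200 genes were changed, against 3268 genes called in the data. The false share of DESeq2 calls in the data was therefore not measured.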

Additional observations from a re-analysis of the deposited data

How the results depend on the processing

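The comparison called 8 forkhead members, 2 higher and 6 lower, and 59 genes of the lists; no called member changed sign. The Y-linked covariate left 2 members (1 higher, 1 lower) and 22 list genes, and the fit over male samples, chosen after seeing the data, left 1 member (0 higher, 1 lower) and 15 list genes; both fits also called fewer of all genes, and the male fit holds fewer samples. Without the low-count filter 1 member was higher. With the replicate block 1 was higher, 7 were called and 6 lower, with 56 list genes; Foxn1 was the call lost. Leaving out each sample in turn gave 5 to 7 called, 1 to 2 higher, 4 to 6 lower and 37 to 65 list genes, with 18 to 19 members detected in control and 20 in Pea3 TKO. The lowest counts were 5 members without control replicate 3, and 37, 38 and 37 list genes without control replicate 2, control replicate 3 and Pea3 TKO replicate 1. Foxn1 was lost in 9 of the 12 alternatives and Foxm1 in 6. RLE size factors and DESeq2 each called 9 members, 3 higher, the added call being Foxc1. The cause of each move was not tested beyond this. At 3 samples a group, and with embryo sex unequal, differences in Foxl1, Foxo3 and Foxo4 could not be resolved, and members with a few counts were not tested.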
